A study of Mus musculus with 20 samples.

Results

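The main effect of doxorubicin (DOXO) on left ventricular gene expression was measured as the difference between 12 mice given DOXO and 8 mice that were not, averaged over 2 diets. The comparison used 20 of the 20 arrays of the series, 1 array per mouse, assigned to groups by their titles. There were 6 DOXO mice (DOXO with placebo), 6 FA-DOXO mice (DOXO with folic acid, FA), 4 sham mice (placebo) and 4 FA-sham mice (folic acid). All were male C57BL/6 mice labelled as 2 months old, DOXO was a single intraperitoneal dose of 20 mg/kg, the FA mice ate 10 mg of it daily in soft dough from 7 days before the injection, and hearts were taken at day 10, so that the DOXO groups hold mice that lived to that day. The difference between DOXO and sham and the difference between FA-DOXO and FA-sham were averaged with equal weight, and a positive value means a higher signal in the DOXO-treated mice. Values are log2 signals of transcript clusters, which for an annotated gene summarise the probes for its exons. Of 34760 clusters, 21640 carried 1 gene symbol and are called named here, 1321 carried several and 11799 were not listed in the annotation. Whether the clusters not listed measure transcripts of genes was not tested, and counts over all clusters include them.

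Doxorubicin is an anthracycline that intercalates into DNA, traps topoisomerase II on it and takes part in redox cycling with iron, and its use in tumour treatment is limited by damage to the heart. Metallothioneins are small cysteine-rich proteins that bind zinc and copper, and their genes are switched on by metals through short metal response elements in their promoters, and also by glucocorticoids and oxidative stress. The ventricle of an adult mouse uses the alpha myosin heavy chain, whereas the beta chain encoded by Myh7 belongs to the fetal ventricle and returns in many forms of heart stress. MHC class II molecules present peptides to helper T cells and are made mostly by dendritic cells, B cells and macrophages.

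The promoters of Mt2 and Mt1 are shown because these neighbouring metallothionein genes both rose. Each window runs from 250 bases before to 50 bases after the start of the gene (RefSeq, GRCm38.p6), Mt2 at chr8:94172368-94172667 and Mt1 at chr8:94178839-94179138, both on the plus strand. Capitals mark the core of the metal response element, TGCACNC or TGCGCNC, on either strand.
Mt2: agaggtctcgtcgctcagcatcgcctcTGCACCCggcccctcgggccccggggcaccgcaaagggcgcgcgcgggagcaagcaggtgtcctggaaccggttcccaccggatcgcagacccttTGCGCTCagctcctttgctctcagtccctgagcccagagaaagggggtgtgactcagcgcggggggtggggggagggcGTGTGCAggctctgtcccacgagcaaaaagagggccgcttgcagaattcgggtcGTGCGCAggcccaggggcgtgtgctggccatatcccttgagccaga
Mt1: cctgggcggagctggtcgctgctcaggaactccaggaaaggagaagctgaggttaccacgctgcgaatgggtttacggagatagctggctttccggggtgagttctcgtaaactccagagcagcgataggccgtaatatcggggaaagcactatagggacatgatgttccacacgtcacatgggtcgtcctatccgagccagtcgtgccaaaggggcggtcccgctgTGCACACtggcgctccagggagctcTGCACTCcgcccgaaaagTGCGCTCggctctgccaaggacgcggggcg
The Mt2 window held 4 matches and the Mt1 window 3. Of 32851 promoter windows of the same length, 25.7% held at least 1 match, 1.97% at least 3 and 0.517% at least 4. A match describes the letters in the window and does not show that a factor binds there. A promoter window was found by symbol for 36 of the 45 genes that passed the adjusted threshold.

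The 20 arrays differed in how far their log2 signals spread. The SD of the signals of an array averaged 1.13 ± 0.26 in DOXO mice (SD, n = 6) and 1.27 ± 0.25 in sham mice (SD, n = 4), and 1.04 ± 0.19 in FA-DOXO mice (SD, n = 6) and 0.96 ± 0.12 in FA-sham mice (SD, n = 4). The difference was -0.14 on the placebo diet and 0.08 with FA, and their mean was -0.03 (two-sided exact permutation of the labels within each diet over 44100 arrangements, p = 0.769). Arrays with an SD above 1.1 are called wide, which were those of 2 DOXO, 2 FA-DOXO, 3 sham and 1 FA-sham mice. The other 12, from 4 DOXO, 4 FA-DOXO, 1 sham and 3 FA-sham mice, are called narrow. The spread accounted for a median of 76.4% of the variance within groups over the named clusters. For this reason the comparison was fitted without a covariate and again with the array SD as a covariate. For genes and lists below, differences, SE, p and list counts over all 20 arrays come from the fit with the covariate unless stated. The cardiomyocyte markers, a check of the tissue label, had a mean log2 signal of 8.43 to 12.70 in the 12 DOXO-treated mice and 8.32 to 13.10 in the 8 mice without DOXO, with array medians near 6.5 and no marker at 0, since log2 signals have no true zero.

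Without a covariate, 4 clusters passed an adjusted p of 0.05 (limma, Benjamini-Hochberg over all clusters), which is 0.0115% of those tested, and none of the 4 carried a single gene symbol. Of the named clusters, 280 had an unadjusted p under 0.05. At an unadjusted p of 0.01, 110 clusters were higher and 66 lower in DOXO-treated mice, or 0.316% and 0.19% of all clusters. Among the named clusters the balance was the reverse, with 26 higher and 41 lower, whereas the fit with the covariate gave 411 and 169. With the array SD as a covariate, 79 clusters passed the adjusted threshold in limma. Of these, 28 were not listed in the annotation (26 higher and 2 lower) and 5 carried several symbols. Over all 79, 66 were higher (0.19% of all clusters) and 13 lower (0.0374%), and 46 carried 1 symbol, with 39 higher and 7 lower. At the unadjusted threshold, 700 were higher (2.01%) and 283 lower (0.814%), so that 71.2% were higher, against 56.4% after quantile normalization and 59.2% after median centring. Without the covariate the same shares were 62.5%, 50.8% and 46.6%. The count of 79 depended on single mice. It was 4 without sham replicate 2, 8 without sham replicate 3 or FA-sham replicate 2, and 18 without FA-DOXO replicate 5, while 327 passed without sham replicate 4, the only narrow sham array on the placebo diet. The averaged difference of the 46 named calls had the same direction in both fits and on wide and narrow arrays. The calls were chosen on these same arrays, which favours such agreement, and the share among other clusters was not counted. In the 2 diets taken separately, all 46 had 1 direction with the covariate and 39 without it, where 7, Cdh2 among them, had opposite signs. For the 46 calls the median SE was 0.12 with the covariate and 0.47 without it.

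**Figure D1:**
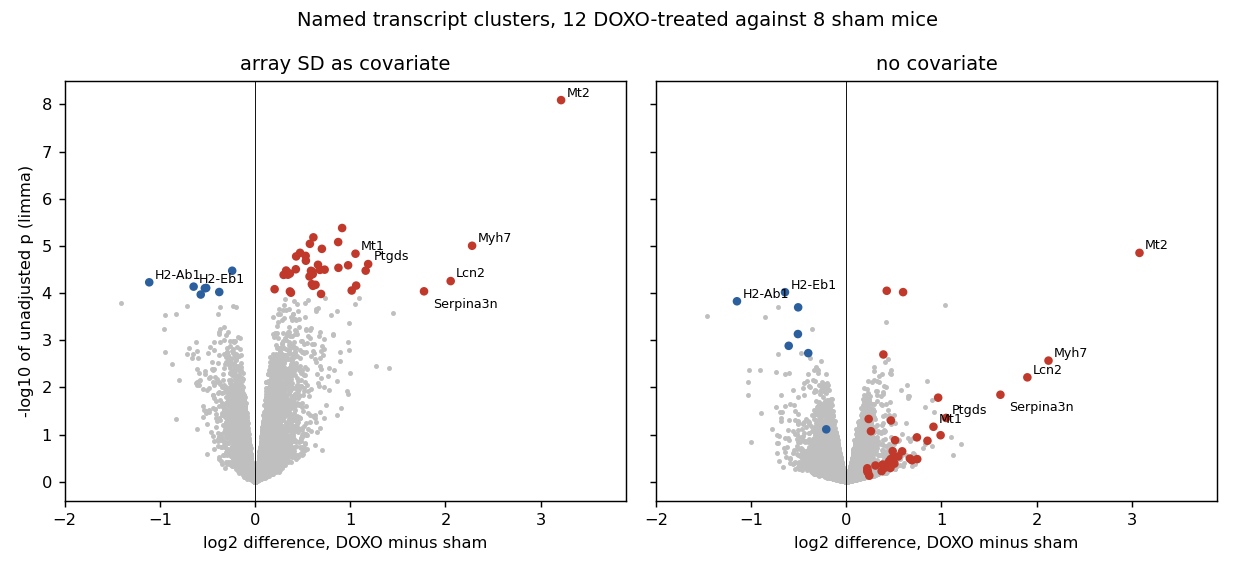
Log2 difference of DOXO-treated minus sham mice (x axis) against -log10 of the unadjusted limma p (y axis) for the 21640 named clusters, with the array SD as covariate on the left and no covariate on the right. Red and blue points are the 39 higher and 7 lower clusters with an adjusted p under 0.05 in the fit with the covariate, and Mt2 stands furthest to the upper right in both panels.

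Mt2 had the largest difference of the named genes. Its log2 signal was lowest at 9.80, median 11.37 and highest 13.25 in 6 DOXO mice, against 9.36, 9.10, 9.37 and 7.22 in 4 sham mice. With FA it was lowest at 8.64, median 11.28 and highest 12.73 in 6 FA-DOXO mice, against 7.00, 7.38, 7.63 and 8.57 in 4 FA-sham mice. Within each diet, every DOXO-treated mouse lay above every mouse without DOXO, and the share of all clusters for which this holds was not counted. The difference was 3.22 (SE 0.32, limma adjusted p = 9.39e-05), which is 9.29-fold, and without the covariate it was 3.08 (SE 0.53, limma adjusted p = 0.0698). It was 3.42 on the placebo diet and 3.01 with FA, and 3.52 on wide and 3.43 on narrow arrays. Mt2 was the only named call that held in 20 of 20 omissions of a mouse, with differences of 3.09 to 3.38. Mt1 rose by 1.05 (SE 0.18, limma adjusted p = 0.0221, 2.08-fold), with log2 signals of 7.92 to 11.75 (median 9.18) in 12 DOXO-treated mice and 7.62 to 9.52 (median 8.29) in 8 mice without DOXO, so that the groups overlapped. Without the covariate Mt1 was at 0.92 (SE 0.47). Its call was lost in 5 of 20 omissions, the highest adjusted p being 0.0714 without sham replicate 3, where the difference was 1.04. The sequences of the metallothioneins are similar, and signal shared between their probes cannot be told apart here. Of 15 metallothioneins and zinc transporters, Mt2 and Mt1 passed the unadjusted threshold and 13 did not. Mt3, the metallothionein best known from brain, was at 0.08 (SE 0.06) and Mt4, known from squamous epithelium, at 0.06 (SE 0.06), both named outside the rule, after their values were seen. The median of the list was 0.04, with 0.01 over all clusters.

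Myh7, the beta myosin heavy chain, rose by 2.28 (SE 0.38, limma adjusted p = 0.0203, 4.86-fold). Its log2 signal was lowest at 7.64, median 8.62 and highest 13.01 in 6 DOXO mice, against 7.01, 7.16, 7.42 and 7.24 in 4 sham mice. It was lowest at 7.86, median 8.63 and highest 11.87 in 6 FA-DOXO mice, against 7.33, 7.07, 7.08 and 7.36 in 4 FA-sham mice. All 12 DOXO-treated mice lay above all 8 mice without DOXO. This was so, in either direction, for 8 clusters (0.023% of all), of which 3 were named: Myh7, Lcn2 and S100a8. In mice without DOXO, Myh7 lay between 7.01 and 7.42 on wide and narrow arrays alike. In DOXO-treated mice it was 10.29 to 13.01 on the 4 wide and 7.64 to 8.98 on the 8 narrow arrays, so that the difference was 4.19 on wide and 1.07 on narrow arrays. Its call was lost without sham replicate 2 or 3 or FA-sham replicate 2, the highest adjusted p being 0.0640 (limma) at a difference of 2.17 without sham replicate 3. Myh7 and its neighbour Myh6 are near copies of each other, so probe signal may be shared. Myh6, the alpha chain, was at -0.09 (SE 0.22, limma adjusted p = 0.955).

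For 13 genes of the fetal programme and natriuretic peptides, the list median was 0.22. At the unadjusted threshold, 1 passed without the covariate and 4 with it, all higher. Besides Myh7 these were Ankrd1, a stress-responsive ankyrin repeat protein of the sarcomere (1.41, SE 0.43), the matricellular growth factor Ccn2 (0.99, SE 0.27) and Corin, the protease that activates natriuretic peptides (0.43, SE 0.10). Ankrd1 had a limma adjusted p of 0.255 and Corin of 0.0944. The natriuretic peptides themselves did not pass, with Nppb at 0.39 (SE 0.22) and Nppa at 0.25 (SE 0.30), nor did the skeletal actin Acta1 (-0.22, SE 0.21). Nppb lay between 8.38 and 11.78 (median 10.15) in DOXO-treated mice and between 8.89 and 10.82 (median 9.95) in mice without DOXO. Of 27 sarcomere genes, 7 were higher and 2 lower at the unadjusted threshold, and 1 and 0 without the covariate. The intermediate filament desmin (Des) was at 0.98 (SE 0.23), the Z-disc proteins Actn2 at 0.69 (SE 0.19) and Myot at 0.41 (SE 0.11). The 2 lower were the muscle myosin light chain kinase Mylk4 (-0.94, SE 0.26) and the thin filament protein Lmod3 (-0.60, SE 0.17), both named after their values were seen. Of 13 genes of the desmosome and intercalated disc, 2 were higher with the covariate and 0 without it. N-cadherin (Cdh2), the adhesion molecule of the disc, was higher by 0.47 with the covariate (SE 0.08, limma adjusted p = 0.0221). Without the covariate Cdh2 was at 0.24 (SE 0.73). The desmosomal plakophilin Pkp2 was at 0.40 (SE 0.09, limma adjusted p = 0.0809). The Cdh2 call was lost without sham replicate 2 (difference 0.44) or 3, FA-sham replicate 2 or FA-DOXO replicate 5, with a highest adjusted p of 0.0681.

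**Figure D2:**
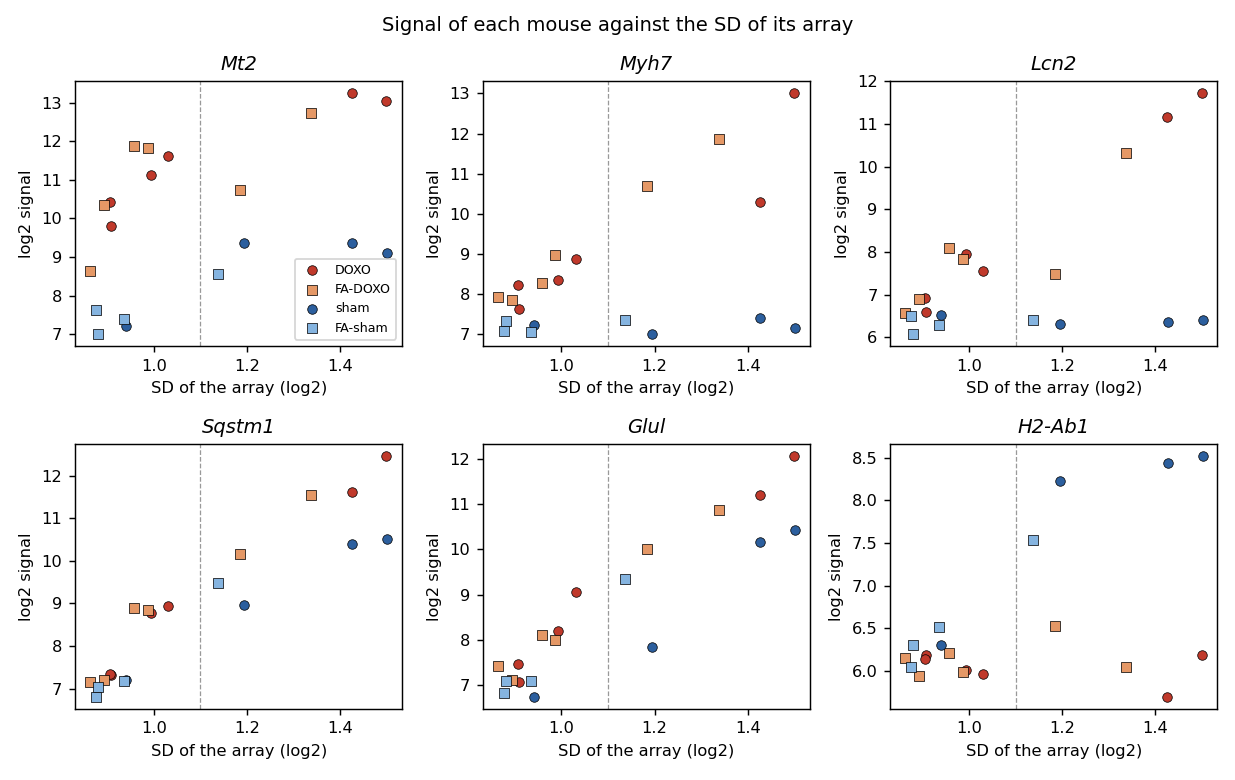
Log2 signal (y axis) of 6 genes in each of the 20 mice against the SD of the mouse's array (x axis), with circles for the placebo diet, squares for FA, red and orange for DOXO and FA-DOXO, dark and light blue for sham and FA-sham, and a dashed line at the SD of 1.1 that separates narrow from wide arrays. Mt2 did not overlap between treatments on wide or on narrow arrays, Myh7 and Lcn2 stayed at 6.08 to 7.42 in all mice without DOXO, Sqstm1 and Glul followed the spread in all groups, and H2-Ab1 was above 7.5 only in the 4 wide arrays of mice without DOXO.

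Secreted proteins of the acute phase were among the largest increases. Lcn2, lipocalin 2, which binds bacterial iron carriers and is made by neutrophils, epithelia and stressed heart muscle, rose by 2.06 (SE 0.39, limma adjusted p = 0.0360, 4.16-fold). Its log2 signal was lowest at 6.60, median 7.76 and highest 11.73 in 6 DOXO mice, against 6.30, 6.40, 6.37 and 6.53 in 4 sham mice. It was lowest at 6.57, median 7.66 and highest 10.32 in 6 FA-DOXO mice, against 6.08, 6.29, 6.50 and 6.40 in 4 FA-sham mice. The groups did not overlap, although the lowest DOXO-treated mouse and the highest mouse without DOXO were only 0.05 apart. Serpina3n, a serine protease inhibitor of the acute phase, rose by 1.78 (SE 0.36, limma adjusted p = 0.0452), with 6.74 to 12.38 (median 8.05) in DOXO-treated mice and 6.59 to 7.34 (median 6.93) in mice without DOXO. On narrow arrays Serpina3n lay between 6.744 and 9.224 in DOXO-treated mice, against 6.745 to 6.966 in mice without DOXO. On wide arrays it lay between 7.943 and 12.381, against 6.587 to 7.34. The caeruloplasmin gene Cp, a copper ferroxidase, rose by 0.66 (SE 0.12, limma adjusted p = 0.0273). Without the covariate Cp was at 0.48 (SE 0.58). The list of the acute phase and of secreted stress proteins held 25 measured genes, of which 6 passed the unadjusted threshold upwards and 0 downwards, with a median of 0.05. Without the covariate 2 passed upwards and 0 downwards. The tissue inhibitor of metalloproteinases Timp1 was at 0.89 (SE 0.24, limma adjusted p = 0.194). Lcn2 kept its call in 6 of 20 omissions of a mouse, Serpina3n in 4 and Cp in 14. The highest adjusted p were 0.116 for Lcn2 (difference 1.91 without sham replicate 3), 0.137 for Serpina3n (1.63 without sham replicate 2) and 0.0836 for Cp (0.65 without sham replicate 3).

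Markers of neutrophils were higher in part. The list held 15 measured genes, 6 of which were higher at the unadjusted threshold and 0 lower, with a median of 0.14. This median was 0.26 on the placebo diet and 0.01 with FA. On wide arrays it was 0.19 and on narrow arrays -0.04, both from fits without the covariate. Without the covariate 5 were higher and 0 lower. S100a8, a calcium-binding protein that neutrophils hold in large amounts, lay between 6.58 and 8.61 (median 6.86) in 12 DOXO-treated mice and between 5.25 and 6.43 (median 6.06) in 8 mice without DOXO. Its groups did not overlap, and its difference of 1.05 (SE 0.22) had a limma adjusted p of 0.0659. Its partner S100a9 was at 0.39 (SE 0.13), the resistin-like Retnlg at 0.68 (SE 0.17) and the neutrophil collagenase Mmp8 at 0.32 (SE 0.10). The mean signal of the list was 6.32 to 6.90 in DOXO-treated mice and 5.69 to 6.46 in mice without DOXO, near the array medians. Lcn2 is 1 of these 15 markers, and how much of its rise came with neutrophils was not tested. In tissue arrays, more cells of a type and more RNA per cell cannot be told apart. Of 15 macrophage markers, 2 were higher, the endothelial and macrophage hyaluronan receptor Lyve1 (0.36, SE 0.08) and the complement component C1qa (0.29, SE 0.07). Of 22 chemokines, 3 were higher, which were Cxcl13 (0.67, SE 0.23) and 2 that attract myeloid cells, Ccl6 (0.97, SE 0.25) and Ccl9 (0.41, SE 0.12). Another 1 was lower. This was Cxcl9 (-0.71, SE 0.15, limma adjusted p = 0.0683), which interferon gamma induces and which attracts T cells.

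On the list of lipid carriers and prostaglandin synthesis, 4 of 15 measured genes were higher, 1 was lower and 10 did not pass. Without the covariate 1 was higher and 1 lower. The 4 higher members with the covariate all passed the adjusted threshold. Besides Lcn2, they were Ptgds, the prostaglandin D2 synthase of the lipocalin family (1.19, SE 0.21, limma adjusted p = 0.0273), apolipoprotein D (Apod, 1.06, SE 0.21, limma adjusted p = 0.0401) and clusterin (Clu, 0.87, SE 0.14, limma adjusted p = 0.0203), an extracellular chaperone. Without the covariate the differences were 1.05 (SE 0.49) for Ptgds, 0.97 (SE 0.37) for Apod and 0.67 (SE 0.66) for Clu. Ptgds had log2 signals of 7.71 to 11.51 (median 9.44) in DOXO-treated mice and 7.53 to 9.53 (median 8.60) in mice without DOXO. Apod stayed between 7.14 and 7.51 in all 8 mice without DOXO and lay between 7.21 and 10.66 in the DOXO-treated mice. On wide arrays Ptgds was at 10.86 to 11.51 in DOXO-treated mice, against 8.98 to 9.53 without DOXO, and Apod at 8.61 to 10.66, against 7.26 to 7.51. On narrow arrays Ptgds was at 7.71 to 9.78, against 7.53 to 8.23, and Apod at 7.21 to 8.16, against 7.14 to 7.35. Ptgds kept its call in 13, Apod in 5 and Clu in 17 of 20 omissions. Without sham replicate 3 the adjusted p was 0.0836 for Ptgds (difference 1.13), 0.120 for Apod (0.99) and 0.0599 for Clu (0.82). The secreted phospholipase Pla2g5 was the 1 lower member (-0.95, SE 0.21, limma adjusted p = 0.0835).

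Genes of the antioxidant response controlled by NRF2 and of glutathione metabolism leaned upwards with the covariate. Of 31 measured, 8 were higher at the unadjusted threshold, 0 lower and 23 did not pass, and the list median was 0.24. Without the covariate 0 of the 31 passed, with a median of 0.16. The glutathione S-transferase Gstm2 rose by 0.64 (SE 0.12, limma adjusted p = 0.0401), and without the covariate it was at 0.49 (SE 0.47). Gclm, a subunit of the enzyme that sets the rate of glutathione synthesis, was at 0.73 (SE 0.15, limma adjusted p = 0.0549), the quinone reductase Nqo1 at 0.86 (SE 0.19) and the secreted glutathione peroxidase Gpx3 at 1.44 (SE 0.32). For Gclm, the 8 DOXO-treated mice with narrow arrays lay between 6.60 and 7.63 and the 4 narrow arrays of mice without DOXO between 6.46 and 6.78. On wide arrays the range was 7.87 to 10.86 in DOXO-treated mice and 7.31 to 8.71 in mice without DOXO. Mgst1, the microsomal glutathione transferase, which is not on the list, rose by 1.16 (SE 0.21, limma adjusted p = 0.0273). Without the covariate Mgst1 was at 0.99 (SE 0.58). Of 13 genes of doxorubicin efflux and reduction, Nqo1 was the only 1 past the unadjusted threshold. The Gstm2 call held in 3 of 20 omissions (adjusted p up to 0.120 at a difference of 0.60 without sham replicate 3) and the Mgst1 call in 10 (up to 0.0899 at 1.07, without the same mouse).

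Genes of autophagy, lysosome and muscle atrophy were higher in 9 of 28 cases at the unadjusted threshold and lower in 0, with a list median of 0.15. Without the covariate 0 of the 28 passed, with a median of 0.08. Sqstm1, the p62 receptor that carries ubiquitinated cargo into autophagosomes and is itself an NRF2 target, rose by 0.98 (SE 0.17, limma adjusted p = 0.0273). Without the covariate Sqstm1 was at 0.75 (SE 0.75). It lay between 7.16 and 8.94 (median 8.06) on the 8 narrow arrays of DOXO-treated mice and between 6.81 and 7.20 (median 7.10) on the 4 of mice without DOXO. On wide arrays it lay between 10.17 and 12.46 (median 11.58) in DOXO-treated mice and between 8.96 and 10.52 (median 9.94) in mice without DOXO. The mitophagy receptor Bnip3 rose by 0.88 in 1 cluster (SE 0.16, limma adjusted p = 0.0273), and its other cluster, which has the higher signal, was at 1.096 (SE 0.23, limma adjusted p = 0.0549). Without the covariate these clusters were at 0.74 and 0.91, neither past the unadjusted threshold. The autophagosome proteins Gabarapl1 (0.64, SE 0.14) and Map1lc3b (0.69, SE 0.17) had limma adjusted p of 0.0755 and 0.127. The tetraspanin Cd63 of late endosomes, which is not on the list, rose by 1.02 (SE 0.20, limma adjusted p = 0.0451). Without the covariate Cd63 was at 0.85 (SE 0.55). Its treatments did not overlap on wide or on narrow arrays. Such a separation in 1 direction on both kinds of array was found for 25 clusters (0.0719% of all), 11 of them named and 5 of the 46 named calls: Mt2, Myh7, Lcn2, Cd63 and Ctla4. Sqstm1 kept its call in 14, this Bnip3 cluster in 12 and Cd63 in 5 of 20 omissions. Their highest adjusted p were 0.0836 (Sqstm1, 0.95) and 0.0847 (Bnip3, 0.80) without sham replicate 3, and 0.137 (Cd63, 0.93) without sham replicate 2.

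The share of members past the unadjusted threshold upwards was highest among genes that respond to glucocorticoids, with 11 of 21 higher, 0 lower and a list median of 0.39. Without the covariate 2 were higher and 0 lower, with a median of 0.27, and more passed among neutrophil markers (5 of 15). The 11 include Mt2 and Lcn2, which other lists hold as well. The NF-kB inhibitor Nfkbia was at 0.44 (SE 0.09, limma adjusted p = 0.0654), the sulfotransferase Sult1a1 at 0.45 (SE 0.10), and, outside the naming rule and chosen after their values were seen, the serum- and glucocorticoid-regulated kinase Sgk1 at 0.51 (SE 0.13) and the steroid receptor co-chaperone Fkbp5 at 0.49 (SE 0.15). The median of this list was 0.71 on the placebo diet and 0.04 with FA, and without the covariate 0.34 and 0.26, and the difference between the diets was not tested for the list. Nfkbia was at 0.84 on the placebo diet and 0.04 with FA, and without the covariate at 0.41 and 0.29. The pyruvate dehydrogenase kinase Pdk4 was at 0.71 on the placebo diet and 1.83 with FA, and without the covariate at -0.11 and 2.30. Glutamine synthetase (Glul), which is not on the list, rose in both of its clusters, by 0.91 (SE 0.14, limma adjusted p = 0.0203) and 0.68 (SE 0.12, limma adjusted p = 0.0273). Without the covariate they were at 0.69 (SE 0.72) and 0.46 (SE 0.69). The cluster with the larger difference lay between 7.07 and 12.07 (median 8.15) in DOXO-treated mice and between 6.74 and 10.43 (median 7.47) in mice without DOXO. It kept its call in 18 of 20 omissions, losing it without sham replicate 2 (0.89, limma adjusted p = 0.0578) or FA-sham replicate 2. The other cluster kept it in 11.

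Class II antigen presentation was the list with the most lower members. Of 10 measured genes, 6 were lower at the unadjusted threshold, 1 higher and 3 did not pass, with a list median of -0.27. Without the covariate 5 were lower and 0 higher, with a median of -0.25. The class II beta chains H2-Ab1 and H2-Eb1 fell by 1.11 (SE 0.21, limma adjusted p = 0.0370) and 0.65 (SE 0.13, limma adjusted p = 0.0407) on the log2 scale. H2-Ab1 had log2 signals of 5.70 to 6.19 (median 6.07) in 6 DOXO mice, against 8.22, 8.52, 8.44 and 6.30 in 4 sham mice. It had 5.94 to 6.53 (median 6.09) in 6 FA-DOXO mice, against 6.30, 6.51, 6.04 and 7.54 in 4 FA-sham mice. The 4 high values are those of the wide arrays of mice without DOXO. On wide arrays the DOXO-treated mice lay between 5.70 and 6.53, against 7.54 to 8.52 in mice without DOXO. On narrow arrays they lay between 5.94 and 6.21, against 6.04 to 6.51. The alpha chain H2-Aa was at -1.41 (SE 0.30, limma adjusted p = 0.0636), the invariant chain Cd74 at -0.87 (SE 0.26) and the peptide exchange factor H2-DMa at -0.37 (SE 0.08). H2-Aa lay between 5.88 and 7.12 (median 6.17) in DOXO-treated mice and between 6.30 and 9.29 (median 7.46) in mice without DOXO. Ciita, the master regulator of class II genes, was at -0.01 (SE 0.04), and the 1 higher member was the lysosomal protease Ctss (0.16, SE 0.05), both named after their values were seen. Among markers of cells that make class II molecules, 0 of 8 passed for dendritic cells and 0 of 7 for B cells, and 2 of 15 were higher for macrophages. Whatever their p, 1 of 8, 3 of 7 and 8 of 15 had a positive difference. The list medians were -0.07, -0.06 and 0.02. On wide arrays without the covariate they were -0.22, -0.11 and 0.19, and on narrow arrays -0.04, -0.05 and -0.01. Dendritic and B cell signals lay near or below the array medians, which limits what could be measured. The mean signal was 6.04 to 6.72 in DOXO-treated mice and 6.09 to 6.76 in mice without DOXO for dendritic cell markers. It was 5.87 to 6.62 in DOXO-treated mice and 5.97 to 6.74 in mice without DOXO for B cell markers, and 6.74 to 7.43 in DOXO-treated mice and 6.73 to 7.32 in mice without DOXO for macrophage markers. The calls of H2-Ab1 and H2-Eb1 each held in 3 of 20 omissions, with adjusted p up to 0.116 (difference -1.05) and 0.120 (-0.63) without sham replicate 3.

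The promoters of H2-Aa and H2-Eb1 (RefSeq, GRCm38.p6, the same window) are shown with the Y box core ATTGG, searched on both strands, in capitals. H2-Aa is at chr17:34287774-34288073 on the minus strand and H2-Eb1 at chr17:34305617-34305916 on the plus strand, and both are written in the direction of the gene.
H2-Aa: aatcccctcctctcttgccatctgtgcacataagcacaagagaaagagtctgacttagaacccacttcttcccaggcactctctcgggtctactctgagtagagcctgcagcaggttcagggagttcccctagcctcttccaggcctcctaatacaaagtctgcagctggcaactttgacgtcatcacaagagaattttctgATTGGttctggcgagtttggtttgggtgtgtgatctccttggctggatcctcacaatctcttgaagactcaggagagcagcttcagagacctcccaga
H2-Eb1: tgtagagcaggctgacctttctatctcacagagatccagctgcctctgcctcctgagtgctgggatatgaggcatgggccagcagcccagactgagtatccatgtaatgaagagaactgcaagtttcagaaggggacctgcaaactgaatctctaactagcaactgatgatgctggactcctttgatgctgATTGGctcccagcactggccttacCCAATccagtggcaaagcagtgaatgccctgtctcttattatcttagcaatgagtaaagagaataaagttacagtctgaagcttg
The H2-Aa window held 1 match and the H2-Eb1 window 2, and of all windows 37.4% held at least 1 and 11.7% at least 2. The match describes letters only.

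Signals of adult globins were lower, among them the largest lower difference of the 79 calls. They come from clusters annotated to several near-identical genes, so no single gene is named. The cluster of beta-globin genes with the higher signal was at 6.29 to 7.00 (median 6.80) in 6 DOXO mice and 9.87 to 12.14 (median 12.05) in 4 sham mice, and at 6.59 to 6.91 (median 6.85) in 6 FA-DOXO mice and 7.78 to 11.75 (median 10.37) in 4 FA-sham mice. It fell by 3.99 on the log2 scale (SE 0.37, limma adjusted p = 5.18e-05) and without the covariate its difference was -4.03 (SE 0.39, limma adjusted p = 0.000115), and the 12 and 8 mice did not overlap. The other beta-globin cluster was at -1.37 (SE 0.22, limma adjusted p = 0.0203) and the 2 alpha-globin clusters were at -2.40 (SE 0.43, limma adjusted p = 0.0273) and -2.20 (SE 0.37, limma adjusted p = 0.0221). Alas2, which starts haem synthesis in red cell precursors, fell by 0.51 (SE 0.10, limma adjusted p = 0.0423), with 5.54 to 6.18 (median 6.08) in DOXO-treated mice and 6.06 to 6.84 (median 6.53) in mice without DOXO. It was the only erythroid marker of 4 that passed, and Slc4a1 of the red cell membrane was at -0.02 (SE 0.06). The mean of the 4 erythroid markers lay between 5.94 and 6.63 in DOXO-treated mice and between 6.33 and 6.72 in mice without DOXO. The Alas2 call was lost in 19 of 20 omissions, with an adjusted p up to 0.127 (-0.49, without sham replicate 2), and held without sham replicate 4. Of the 4 clusters that passed without a covariate, the 2 besides the beta-globin clusters have no gene in the annotation. Cluster 10598032 lay between 7.67 and 11.10 in DOXO-treated mice and between 10.52 and 11.85 in mice without DOXO (-2.61 without the covariate, SE 0.34, limma adjusted p = 0.00362). Cluster 10593058 lay between 4.74 and 5.34 in DOXO-treated mice and between 4.04 and 4.67 in mice without DOXO (0.74 without the covariate, SE 0.09, limma adjusted p = 0.00177).

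The other named genes that fell were BC028528 (-0.57), the serine protease Prss55 (-0.53), Sh3bgr of muscle (-0.38) and the T cell checkpoint receptor Ctla4 (-0.24), with limma adjusted p between 0.0273 and 0.0474. Of these, Ctla4 kept its call in 11 of 20 omissions and the others in 2 or 3, and without sham replicate 3 their adjusted p were 0.146 (BC028528, -0.53), 0.123 (Prss55, -0.48), 0.133 (Sh3bgr, -0.36) and 0.0836 (Ctla4, -0.24). Of 11 markers of T and NK cells, 0 passed. Uck2, which phosphorylates uridine and cytidine, rose by 0.73 in 1 cluster (SE 0.13, limma adjusted p = 0.0273), and without the covariate by 0.59 (SE 0.47). The call was lost in 6 of 20 omissions (adjusted p up to 0.0899 at a difference of 0.69 without sham replicate 3). Another Uck2 cluster was at 0.08 on the placebo diet and -0.12 with FA, and without the covariate at -0.004 and -0.07. Outside the naming rule and chosen after their values were seen, the epoxide hydrolases Ephx1 (0.53) and Ephx2 (0.60) and the flavin monooxygenase Fmo2 (0.61) rose with limma adjusted p of 0.0232, 0.0396 and 0.0297. Without sham replicate 3 these were 0.0755 (0.51), 0.115 (0.59) and 0.0985 (0.58). Over all mice without the covariate the differences were 0.38 (SE 0.48), 0.41 (SE 0.60) and 0.49 (SE 0.39). Of the same families, Ephx3 was at -0.02, Ephx4 at 0.05, Fmo1 at -0.14, Fmo4 at -0.02, Fmo5 at 0.24 and Fmo9 at 0.06, none with an adjusted p under 0.05.

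Targets of p53, which responds to DNA breaks, passed in 3 of 29 cases, all higher, with a median of 0.04. Trp53inp1 was at 0.54 (SE 0.13, limma adjusted p = 0.118), Fas at 0.28 (SE 0.09) and Gadd45b at 0.34 (SE 0.11). These counts leave out a called cluster annotated to a p53 target together with another transcript, which cannot be assigned to either. It was at 6.03 to 10.20 (median 7.39) in 6 DOXO mice and 6.00 to 6.56 (median 6.25) in 4 sham mice, and at 6.09 to 9.07 (median 6.85) in 6 FA-DOXO mice and 6.11 to 6.28 (median 6.13) in 4 FA-sham mice, and rose by 1.35 (SE 0.25, limma adjusted p = 0.0297). Of 18 topoisomerases and DNA repair genes, 0 passed, and the targets of doxorubicin itself, Top2a and Top2b, were at -0.04 (SE 0.06) and -0.03 (SE 0.07). Of 33 cell cycle genes, 4 were lower and 0 higher, among them the mitotic kinase Cdk1 (-0.30, SE 0.08), the ubiquitin-conjugating enzyme Ube2c (-0.21, SE 0.06) and the cyclin Ccnd1 (-0.47, SE 0.15), none with an adjusted p under 0.05. Their mean signals lay near the array medians, which limits what could be measured.

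In energy metabolism few genes passed. Of 29 genes of fatty acid oxidation and PPAR targets, 3 were higher and 1 lower, with Pdk4, which turns fuel use from glucose to fat, at 1.27 (SE 0.38), lipoprotein lipase (Lpl) at 0.76 (SE 0.24) and the carboxylesterase Ces1d at -0.66 (SE 0.18). Pdk4 lay between 6.86 and 10.47 on narrow arrays of DOXO-treated mice, against 6.53 to 6.80 in mice without DOXO. On wide arrays it lay between 9.68 and 12.47, against 9.10 to 10.90. Of 35 complex I genes, 0 passed, with a median of 0.04. Of 32 genes of complexes II to V, 1 was lower, the heart and muscle isoform of a cytochrome oxidase subunit, Cox7a1 (-0.95, SE 0.23, limma adjusted p = 0.118). In calcium handling and ion channels 0 of 21 passed, in NO synthesis and tetrahydrobiopterin 0 of 18, in NADPH oxidase 0 of 13 and in folate, one-carbon and methionine metabolism 0 of 21. The synthases Nos1, Nos2 and Nos3 were at 0.03 (SE 0.06), -0.14 (SE 0.07) and 0.08 (SE 0.14). Of 7 stefins and cystatins, 0 passed, and Stfa2, a stefin that inhibits cysteine proteases, was at 0.46 (SE 0.17, limma adjusted p = 0.409). Adam4, a membrane protein of the ADAM family, was at -0.22 (SE 0.06, limma adjusted p = 0.230), with 5.82 to 6.84 (median 6.47) in DOXO-treated mice and 6.32 to 6.86 (median 6.64) in mice without DOXO. By diet, Adam4 was at -0.46 on placebo and 0.02 with FA, and without the covariate at -0.34 and -0.05. Among cell types, 0 of 12 cardiomyocyte, 0 of 14 endothelial, 0 of 9 fibroblast, 0 of 8 adipocyte and 1 of 11 smooth muscle and pericyte markers passed. With the covariate, a member past this threshold was found in 30 of the 51 lists.

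**Figure D3:**
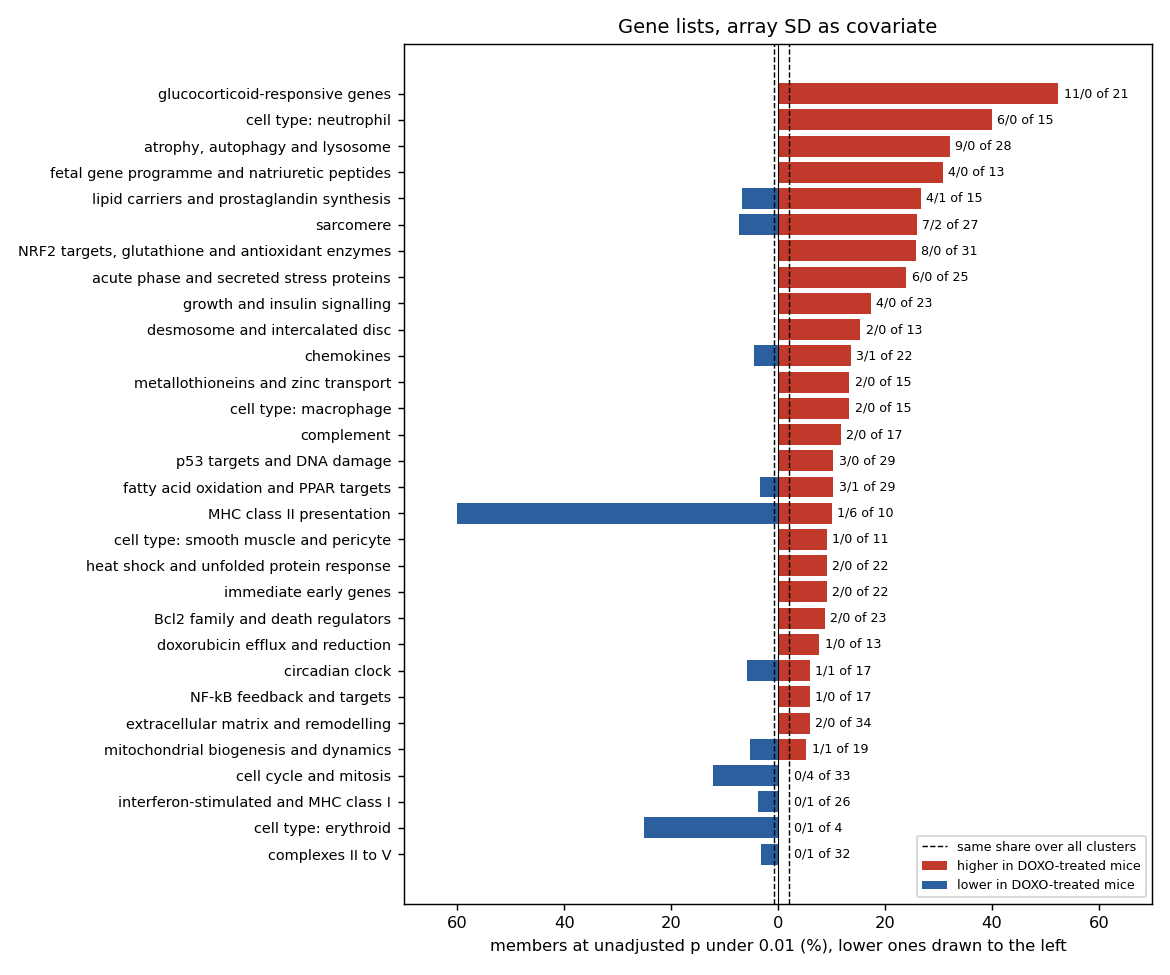
Share of the measured members of each of 30 gene lists that passed an unadjusted limma p of 0.01 with the array SD as covariate (x axis, in percent), higher in DOXO-treated mice to the right in red and lower to the left in blue, with counts of higher and lower members beside the bars. Dashed lines mark the same shares over all clusters, 2.01% and 0.814%, and the glucocorticoid-responsive list (11 of 21) and class II presentation (6 of 10) reach furthest to the right and to the left.

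In which diet the difference was larger depended on the covariate. With it, 42 of the 46 named calls had the larger difference on the placebo diet, and the median size was 0.92 for DOXO versus sham and 0.36 for FA-DOXO versus FA-sham. Without it, 34 of the 46 had the larger difference with FA, with median sizes of 0.38 for DOXO versus sham and 0.67 for FA-DOXO versus FA-sham. For 31 calls the difference was larger on the placebo diet with the covariate and larger with FA without it. A Spef2 cluster turned the other way, at 0.29 and 0.44 with the covariate and at 0.41 and 0.37 without it. The difference between the diets passed an unadjusted p of 0.05 for 26 of the 46 calls, and an adjusted p of 0.05 in limma for 0 of all 34760 clusters, where 3000 had an unadjusted p under 0.05 (0 and 1803 without the covariate). Serpina3n was at 2.84 on the placebo diet and 0.71 with FA, and without the covariate at 2.11 and 1.13. Clu was at 1.44 and 0.31, and without the covariate at 0.47 and 0.87. The Glul cluster with the smaller mean difference was at 1.30 and 0.06, and without the covariate at 0.28 and 0.65. Cdh2 was at 0.75 and 0.19, and without the covariate at -0.33 and 0.82. Mt2 was at 3.42 on the placebo diet and 3.01 with FA (SE of the difference between diets 0.66), and without the covariate at 2.78 and 3.38. Cd63 was at 0.99 and 1.04 with the covariate but at 0.23 and 1.48 without it. The microRNA gene Mir465, named after its values were seen, was at 0.42 and 0.44 with the covariate and at 0.40 and 0.45 without it. Its mean log2 signal of 4.55 lay below the median of every array, and its averaged difference was 0.03 to 0.49 over the settings run. The Mir465 call was lost in 8 of 20 omissions, with an adjusted p of up to 0.0853 without sham replicate 3. The 2 diets share no mice. Of 989 named clusters that passed the unadjusted threshold on the placebo diet, 602 (60.9%) had the same direction with FA, where 46.4% of all named clusters did. Without the covariate 102 of 192 (53.1%) had the same direction, where 20.4% of all named clusters did. Of 142 that passed with FA, 69 (48.6%) had the same direction on the placebo diet. Named clusters that passed in both diets in the same direction numbered 13 with the covariate and 3 without it.

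The differences were also larger on wide than on narrow arrays for most calls, as the plot by kind of array shows. Serpina3n was at 3.34 on wide and 0.80 on narrow arrays, Apod at 2.17 and 0.37, and H2-Ab1 at -1.85 and -0.22, whereas Mt2 (3.52 and 3.43) and Cd63 (1.36 and 1.28) were close on both. Each of these fits rests on 1 mouse in a group, the FA-sham group among wide arrays and the sham group among narrow ones. Without the covariate, 4 clusters on wide arrays alone and 1 on narrow arrays alone passed the adjusted threshold. The reason why arrays differ in spread is not given in the sources used here, and its part in these results was not tested.

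**Figure D4:**
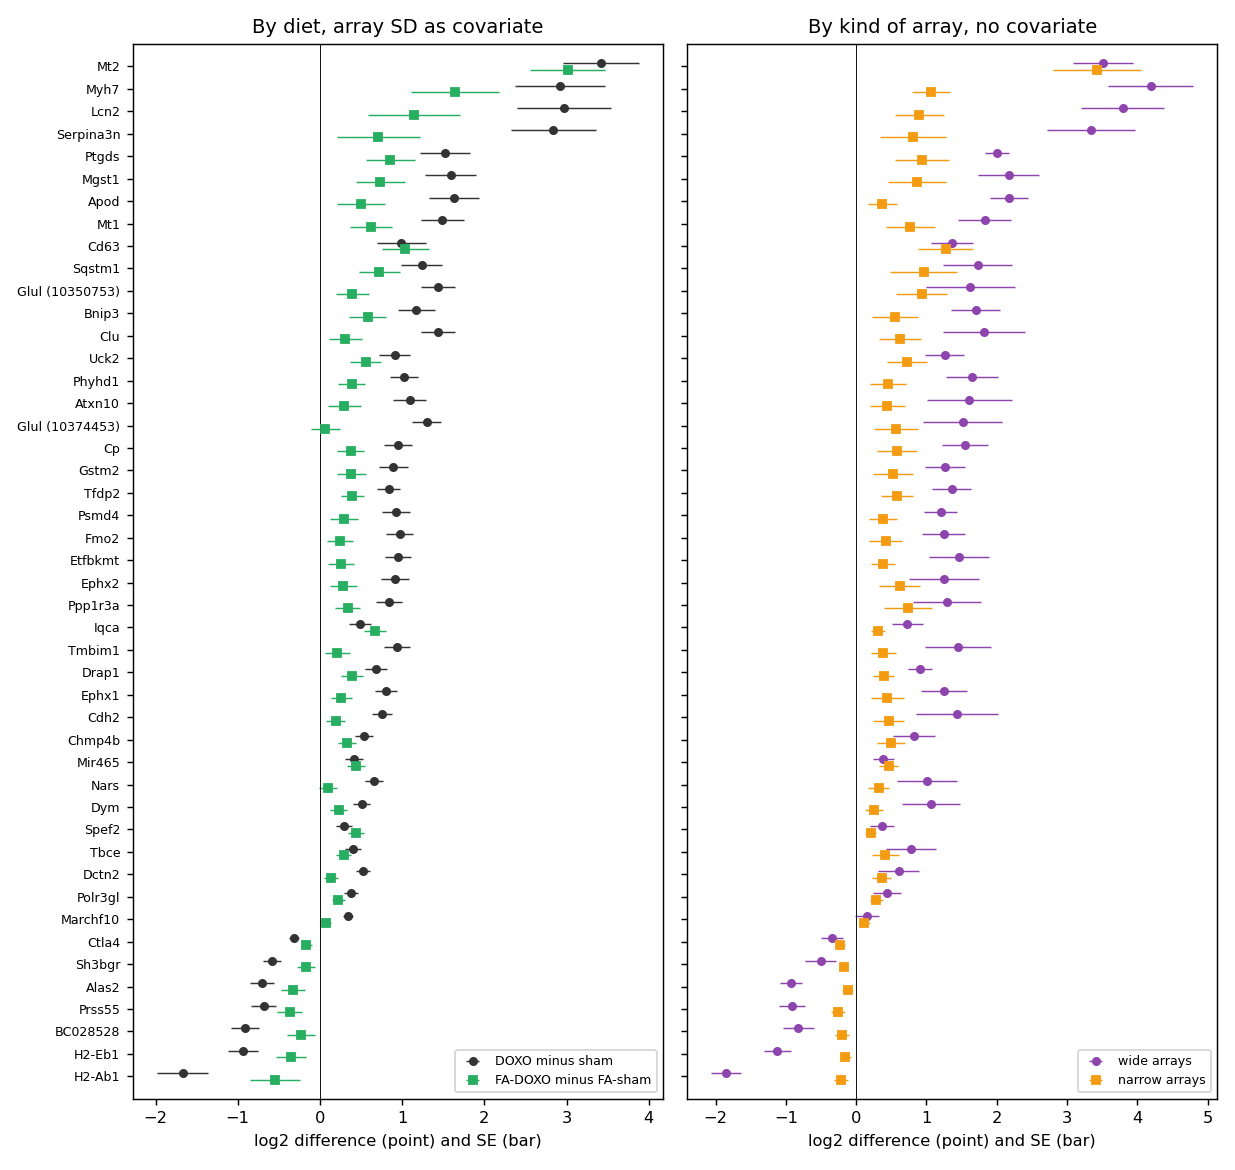
Log2 differences (x axis, points) with their SE (bars) for the 46 named clusters with an adjusted p under 0.05, in the order of their mean difference. Left, DOXO minus sham (black) and FA-DOXO minus FA-sham (green) with the array SD as covariate, where 42 of 46 are larger on the placebo diet (12 of 46 without the covariate), and right, wide (purple) and narrow (orange) arrays without a covariate, where Mt2 is at 3.52 and 3.43.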

How the data were processed

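Left ventricular RNA of 20 mice was hybridised to Affymetrix Mouse Gene 1.0 ST arrays. The authors deposited log2 signals per transcript cluster, made with R 2.14.2 and Bioconductor. For background correction, normalization and probe summary, the method was not given in the sources used here. From these values, limma 3.58.1 (R 4.3.3) was fitted to 34760 clusters with 1 mean per group, without filter or further normalization, and the mean of both within-diet differences was tested two-sided, with Benjamini-Hochberg adjustment, without and with the array SD as a covariate. The fits were run on simulated data in which a cluster had the same slope on the array SD in both treatments. They were not tested on data with unlike slopes. The number of arrays limits the precision. Symbols came from the platform annotation.

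A gene on a list was represented by its cluster with the highest mean signal. Named are the 15 largest differences per direction past the adjusted threshold (filled up to 6 from the unadjusted one), up to 4 list members with the smallest p, the genes the paper names and 2 markers per cell type. Members and lists were chosen with earlier results of these data known. Lists were described by counts and medians, without a set test. Alternatives covered filters, scaling, moderation, weights, diet terms, blocks, measures of spread, wide or narrow arrays and each mouse left out. The replicate numbers name different animals and were not treated as pairs. Promoter sequences are those of RefSeq.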

Additional observations from a re-analysis of the deposited data

Results flagged for a closer look

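In groups of 4 or 6 mice, 12 signals stood apart from the rest of their group by Dixon's criterion, among 96 combinations of group and measure tested (the array SD and 23 genes). Chance marks about 1 in 20 such groups. Of the 12, 9 were on wide and 3 on narrow arrays. FA-sham replicate 4, the only wide array of its group, was the highest of that group for Sqstm1 (9.48, next 7.17), Glul (9.35, next 7.08), Cd63 (7.92, next 6.10), H2-Eb1 (7.89, next 7.49) and Pdk4 (9.20, next 6.79). Sham replicate 4, the only narrow array of its group, was the lowest for Mt2 (7.22, next 9.10), H2-Ab1 (6.30, next 8.22) and H2-Aa (6.37, next 9.07). FA-DOXO replicate 5, a wide array, was the lowest for H2-Eb1 (6.80, next 7.18) and the highest for Pdk4 (12.47, next 9.68), FA-DOXO replicate 6 was the highest for H2-Aa (7.12, next 6.28), and DOXO replicate 1 was the highest for S100a8 (8.61, next 6.95). The array SD itself was marked in no group. What made these mice stand apart was not tested.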

How the results depend on the processing

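The averaged difference of none of the 46 named calls changed sign under the settings run, but the counts and their balance of higher and lower clusters did change. The calls were chosen on the same arrays, which favours an unchanged sign. Without the covariate, the 4 adjusted calls became 2 with only clusters above the median signal, with median centring or with a floor at the 20th percentile, 0 with 1-symbol clusters only, 8 after quantile normalization, 7 with an additive diet term, 1 on narrow arrays only, 19 with the kind of array (wide or narrow) blocked (73.7% higher, against 25% of the 4) and 26935 with array weights, an estimate that did not converge, and leaving out 1 mouse gave 3 to 16 (16 without sham replicate 4). The 176 clusters at the unadjusted threshold became 53 and 75 under these 2 filters, 112 with the floor, 672 with the kind of array blocked, 306 on narrow arrays and 24408 with the weights, with 115 (without sham replicate 3) to 439 (without sham replicate 4) when a mouse was left out. With the covariate, the 79 adjusted calls became 50 and 47 under the 2 filters, 27 after quantile normalization, 21 with the floor, 30 with an additive and 32 with no diet term, 16 with the interquartile range, 17 with the SD and median, 198 with a slope for each treatment, and 1 on the wide and 1 on the narrow arrays alone, both chosen after seeing the data. Leaving out 1 mouse gave 4 to 327, with 35, 8, 26 and 41 without FA-sham replicates 1 to 4, 41 and 49 without DOXO replicates 2 and 4, and 52, 37, 18 and 52 without FA-DOXO replicates 3 to 6. The 983 unadjusted calls became 555 and 627 under the filters, 1547 with array weights and 452 on narrow arrays, and 721 to 1639 without 1 mouse. The share of higher clusters among the 176 (62.5%) was 34.0% and 37.3% under the filters and 37.5% with the floor or with arrays scaled to 1 SD, and among the 983 (71.2%) it was 35.2% on wide arrays.

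When the replicate number was blocked, the adjusted calls (replicate block) were 1 without and 15 with the covariate, and the unadjusted calls with it 631. Residuals of same-numbered mice had correlations of -0.86 to 0.84 (median -0.06, 26 pairs) without and -0.45 to 0.62 (median 0.12) with the covariate. Array spread enters the residuals without the covariate, and these values do not settle whether same-numbered mice share a batch. Of the 46 named calls, 9 held in at least 16 of 20 omissions of a mouse and 16 in 5 or fewer. The cause of these changes was not tested. Low signals near the array median limit what can be seen of rare cells.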
